A study of Mus musculus with 2 samples.

Results

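*Fabp7*, *Dbi*, *Ddah1*, *Prom1*, *Ttyh1*, *Pdpn*, *Mfge8*, *Ptprz1*, *Hopx* and *Lifr* are 10 genes listed here as core genes of radial glia, the stem cells of the embryonic cortex. They were chosen by name, with earlier results of these data known, and all 10 were found among the 24411 genes listed in each library. The libraries came from mouse brain at embryonic day 16.5. Areas of a stained, fresh-frozen section were cut out by laser capture microdissection (LCM), which frees a chosen piece of tissue with a laser under the microscope, and their RNA was sequenced in bulk. One area was labelled the subventricular zone (SVZ), a germinal layer close to the lateral ventricle, and the other the cortex, with 1 library each. The labels do not say whether the SVZ piece took in the layer lining the ventricle, where radial glia have their cell bodies. In the study the libraries served as a reference for a light-directed barcoding method, and the pieces were cut to match the areas illuminated there. The embryos received no treatment that the labels name, and the sources used here give no genotype, strain, sex or number of embryos for either library.

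Radial glia line the ventricle with their cell bodies and send a long fibre across the cortical wall to the pial surface. They divide at the ventricle to renew themselves and to give rise to neurons, mostly by way of intermediate progenitors, and newborn neurons climb along their fibres. Late in development they turn to making astrocytes and other glia, and many of their genes stay on in astrocytes. In primates a further population, the outer radial glia, sits in an enlarged outer SVZ and is known for HOPX, LIFR and PTPRZ1, whereas mice have few such cells.

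The SVZ library held 51435667 gene-assigned reads and the cortex library 22050693, a ratio of 2.33. Values are given as reads and as reads per 1000000 gene-assigned reads (CPM). As each area had a single library, the areas could not be tested against each other and no p-value is given. Each log2 ratio, SVZ over cortex on the CPM scale, carries an exact 95% Clopper-Pearson interval. These intervals cover the counting of reads only and treat each read as independent. Reads that lack molecular identifiers may be copies of the same molecule, so the intervals can be too narrow even for counting error. Differences between embryos, sections or cuts are not in them. In bulk tissue, fewer cells of a type and less RNA per cell cannot be told apart. The labelled areas were checked against defining markers. *Pax6*, a transcription factor of radial glia, was at 179.7 CPM in the SVZ and 0.680 CPM in the cortex, and *Eomes*, which marks intermediate progenitors, was at 227 CPM and 0.0907 CPM. All 8 neuronal markers were higher in the cortex, although *Neurod6*, a transcription factor of cortical excitatory neurons, still stood at 1592 CPM in the SVZ against 2797 CPM in the cortex.

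Of the 10 core genes, 8 were at least 4-fold higher in the SVZ, 1 was near equal and 1 was at least 4-fold higher in the cortex. Among the 9027 genes that averaged 10 CPM or more across both libraries, 609 (6.75%) were at least 4-fold higher in the SVZ and 424 (4.70%) at least 4-fold higher in the cortex. *Hopx* lies under that minimum, and with no minimum 1868 of 15847 genes (11.8%) were at least 4-fold higher in the SVZ. In all, 9 of the 10 were above equality in the SVZ, where 55.2% of the 9027 genes were. These 9 include *Ptprz1*, whose side changed under other scalings, and *Hopx*, which is not among the 9027. The median log2 ratio of the 10 genes was 3.27, beside a median of 0.10 and quartiles of -0.46 and 0.61 over the 9027 genes. *Pdpn* and *Hopx* had no read in the cortex, and their ratios are lower bounds set at a floor of 3 reads per library. Such a bound leaves out counting error, so the lower end of the 95% interval, which lies below it, is given beside it for each core gene at 0. The median was 3.92 if both are placed above every other member. Named by role, the genes of lipid and metabolite handling, the apical and other membrane proteins, the secreted Mfge8 and *Hopx* were the 8 higher in the SVZ, and the receptors *Ptprz1* and *Lifr* were not.

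**Figure D1:**
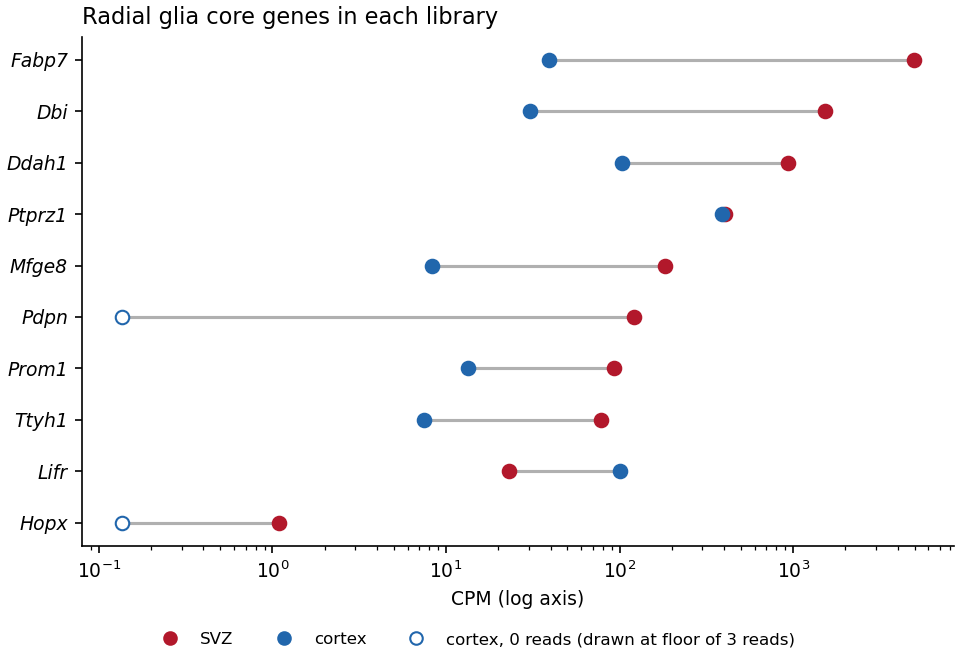
CPM of each core gene in the SVZ (red) and cortex (blue) library on a log axis, 1 point per library, with a grey line joining the pair; open circles stand for 0 reads and are drawn at the floor of 3 reads. The pairs of *Fabp7* and *Pdpn* lie farthest apart, the points of *Ptprz1* almost coincide, and *Lifr* alone has its cortex point to the right.

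Promoter windows are shown for the genes that stand for the 3 patterns, namely *Fabp7* and *Pdpn* (far higher in the SVZ), *Ptprz1* (near equal) and *Lifr* (higher in the cortex, with 2 windows at separate starts). They come from the RefSeq windows of GRCm38.p6, which run from 250 bases before to 50 bases after a start, and all 10 genes matched, with 14 windows between them. Bases inside annotated exons and those after the start were left off, and both Lifr windows lie within the annotated gene body, beyond its first start. Capitals mark, on either strand, the letters TGGGAA of the core bound by RBPJ, the DNA-binding partner of Notch, and the letters ACAAT of the core bound by SOX factors. Sequences read 5′ to 3′ on the gene's strand.
Fabp7 (chr10:57784673-57784880, plus strand): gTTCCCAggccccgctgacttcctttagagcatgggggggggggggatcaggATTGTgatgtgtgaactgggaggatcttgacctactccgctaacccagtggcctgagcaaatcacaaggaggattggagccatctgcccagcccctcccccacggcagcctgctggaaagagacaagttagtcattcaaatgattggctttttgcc
Pdpn (chr4:143299565-143299814, minus strand): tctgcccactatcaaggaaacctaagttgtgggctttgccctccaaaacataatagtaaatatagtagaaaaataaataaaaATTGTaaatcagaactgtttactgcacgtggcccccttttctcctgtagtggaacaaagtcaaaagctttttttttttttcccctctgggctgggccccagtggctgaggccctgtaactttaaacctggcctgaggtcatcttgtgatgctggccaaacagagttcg
Ptprz1 (chr6:22875252-22875501, plus strand): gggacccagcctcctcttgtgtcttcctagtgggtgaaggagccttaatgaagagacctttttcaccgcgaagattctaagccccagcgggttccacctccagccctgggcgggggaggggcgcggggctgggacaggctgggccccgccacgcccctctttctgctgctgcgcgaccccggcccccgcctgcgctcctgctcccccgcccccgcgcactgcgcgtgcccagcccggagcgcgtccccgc
Lifr, first window (chr15:7129322-7129558, plus strand): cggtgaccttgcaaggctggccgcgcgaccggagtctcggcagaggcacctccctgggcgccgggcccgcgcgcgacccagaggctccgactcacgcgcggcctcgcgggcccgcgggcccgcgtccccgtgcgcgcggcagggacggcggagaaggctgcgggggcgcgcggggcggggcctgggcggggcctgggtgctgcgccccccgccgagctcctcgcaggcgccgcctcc
Lifr, second window (chr15:7140292-7140541, plus strand): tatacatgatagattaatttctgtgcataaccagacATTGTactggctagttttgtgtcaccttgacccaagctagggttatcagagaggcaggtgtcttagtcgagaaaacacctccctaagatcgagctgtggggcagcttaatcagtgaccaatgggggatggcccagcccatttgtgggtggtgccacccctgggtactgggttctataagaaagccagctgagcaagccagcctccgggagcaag

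Letters, CpG and GC were counted over the whole window of 300 bases, which includes bases not printed above. TGGGAA was present in 3 of the 14 windows (those of *Fabp7* and *Mfge8* and 1 of *Prom1*), and 25.6% of all 32851 RefSeq windows of this length hold it. ACAAT was present in 4 of the 14 (*Fabp7*, *Pdpn*, and 1 window each of *Hopx* and *Lifr*), beside 31.0% of all windows. *Fabp7* had both, with TGGGAA at -249 and ACAAT at -198 relative to the start. The letters CCAAT were found in 8 of the 14 windows (37.4% of all windows), TTGGC, part of the site of NFI factors, in 7 (46.7%), GGGCGG in 6 (35.7%) and TATAAA in 0 (13.6%). CCAAT and TTGGC share letters where they occur as ATTGGC read on the other strand. A match describes these letters in this window and is not a binding site. The windows differed more in base composition. The *Fabp7* window held 6 CpG and that of *Pdpn* 7, equal or close to the median of 7 over all windows, whereas *Ptprz1* held 29, above the upper quartile of 20. The first *Lifr* window held 53 CpG at 81.3% GC and the second 4 at 53.3% GC. CpG number did not separate the genes by area, since *Dbi*, higher in the SVZ, held 28 and 22 in its windows.

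*Fabp7* (ENSMUSG00000019874.11, chr10:57784881-57788450 in GRCm38, plus strand, 4 exon blocks) encodes brain lipid-binding protein, a fatty acid carrier and the classical radial glia marker. It had 255784 reads in the SVZ, or 4973 CPM, and 861 reads in the cortex, or 39.0 CPM. The SVZ level was 127-fold higher (119 to 136), a log2 ratio of 6.99 [6.90 to 7.09], and 0.598% of the 9027 genes had a higher ratio. In the SVZ, 0.497% of all gene-assigned reads came from this 1 gene. *Dbi* (ENSMUSG00000026385.16, chr1:120113280-120121078, minus strand) encodes the diazepam-binding inhibitor, which binds acyl-CoA esters inside cells and modulates GABA-A receptors when released as peptides. With 78806 SVZ reads (1532 CPM) and 672 cortex reads (30.5 CPM), it was 50.3-fold higher in the SVZ, a log2 ratio of 5.65 [5.54 to 5.76]. *Ddah1* (ENSMUSG00000028194.15, chr3:145758675-145894277, plus strand) encodes an enzyme that breaks down asymmetric dimethylarginine, an inhibitor of nitric oxide synthases. It counted 47812 reads in the SVZ (929.6 CPM) and 2288 in the cortex (104 CPM), an 8.96-fold difference and a log2 ratio of 3.16 [3.10 to 3.22]. These 3 genes were the most counted core genes of the SVZ, in the same order as their fold differences. *Ddah1* remained well represented in the cortex.

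Among the paralogues of these 3 genes and the partners of their products that averaged 1 CPM or more, none was 4-fold higher in the SVZ. *Fabp5*, another fatty acid-binding protein, was at 72.8 CPM in the SVZ and 101 CPM in the cortex, and *Fabp3* was at 3.19 and 39.1 CPM, a log2 ratio of -3.62 [-3.87 to -3.37], so that the ratio of *Fabp3* pointed opposite to that of *Fabp7*. *Fabp4* had no read in either library. The acyl-CoA-binding relatives of *Dbi* lay between -0.39 (*Acbd4*) and 0.06 (*Acbd5*), except for *Acbd7*, which lay under the minimum with 29 SVZ reads and 0 cortex reads. *Tspo*, a mitochondrial protein that binds the *Dbi* product, was at 7.49 CPM in the SVZ and 3.90 CPM in the cortex (0.94 [0.60 to 1.30]). Around *Ddah1*, 3 of the 5 genes that entered at this minimum were higher in the SVZ and 2 in the cortex, with a median log2 ratio of 0.15, and none was 4-fold apart. They were its paralogue *Ddah2* (0.77), the arginine methyltransferases *Prmt1* (0.15), *Prmt6* (0.28) and *Prmt3* (-0.49), and the neuronal nitric oxide synthase *Nos1* (-0.22). *Nos3* lay under the minimum. Over the 12 of 15 paralogues of all the core genes that entered, 4 were higher in the SVZ and 8 in the cortex, with a median log2 ratio of -0.20, and *Acbd5* changed side under 3 of the 4 other scalings.

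*Prom1* (ENSMUSG00000029086.15, chr5:43993620-44102032, minus strand) encodes prominin-1 (CD133), a membrane protein of apical protrusions and cilia. It had 4782 reads in the SVZ (93.0 CPM) and 297 in the cortex (13.5 CPM), a 6.90-fold difference (6.14 to 7.79) and a log2 ratio of 2.79 [2.62 to 2.96]. *Ttyh1* (ENSMUSG00000030428.16, chr7:4119408-4136708, plus strand) encodes a tweety-family membrane protein of neural stem cells and astrocytes. Its 3992 SVZ reads (77.6 CPM) and 165 cortex reads (7.48 CPM) gave a 10.4-fold difference and a log2 ratio of 3.37 [3.15 to 3.61]. *Pdpn* (ENSMUSG00000028583.14, chr4:143267431-143299564, minus strand) encodes podoplanin, a mucin-type glycoprotein that links to the actin cytoskeleton through ezrin-type proteins. It had 6220 reads in the SVZ (121 CPM) and 0 in the cortex, where the floor of 3 reads stands at 0.136 CPM. With the cortex set at this floor the SVZ level was 889-fold higher, a log2 ratio of 9.80, and the lower end of its 95% counting interval was 9.50. By the value at the floor it ranked 3 among the 9027 genes.

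Some genes overlap antisense neighbours, and the libraries keep no strand, since 49.6% of SVZ reads and 49.7% of cortex reads fell on the first strand. *Ttyh1* shares 180 and 244 exon bases with antisense genes, and its stranded columns summed to 4108 and 173 reads, slightly above the unstranded counts. *Prom1* shares 424 exon bases with the antisense *Gm16401*, and its stranded columns summed to its unstranded counts of 4782 and 297 reads. Reads of such a pair cannot be told apart without strand. The relatives *Ttyh2* (0.56) and *Ttyh3* (-0.02) were close to equal. *Prom2* lay under the minimum, with 17 SVZ reads and 1 cortex read. All 4 partners of podoplanin that entered were higher in the SVZ, beside 55.2% of the 9027 genes. The median log2 ratio of the 4 partners was 2.35. The linker proteins *Msn*, *Ezr* and *Rdx* were at 2.93, 1.76 and 1.16, and the tetraspanin *Cd9* at 3.54. *Cd44*, the hyaluronan receptor, lay under the minimum, with 63 reads in the SVZ and 0 in the cortex.

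*Mfge8* (ENSMUSG00000030605.15, chr7:79133768-79149060, minus strand) encodes a secreted protein that bridges exposed phosphatidylserine on cells to integrins. Its counts were 9380 reads in the SVZ (182 CPM) and 182 in the cortex (8.25 CPM). That was 22.1-fold higher in the SVZ (19.1 to 25.7), a log2 ratio of 4.47 [4.25 to 4.69]. The integrin subunits that receive it were few in reads and higher in the SVZ where detected. *Itgav* was at 20.9 CPM against 2.45 CPM (3.10), *Itgb5* at 10.8 against 0.635 CPM (4.09) and *Itgb8* at 3.27 against 1.27 CPM (1.36), while *Itgb3* had no read in either library. *Edil3*, the paralogue of *Mfge8*, went the other way, with 20.4 CPM in the SVZ and 67.4 CPM in the cortex, a log2 ratio of -1.73 [-1.84 to -1.61].

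*Hopx* (ENSMUSG00000059325.14, chr5:77086988-77115121, minus strand) encodes a small homeodomain protein that does not itself bind DNA. It was the core gene with the fewest reads, 56 in the SVZ (1.09 CPM) and 0 in the cortex. With the cortex at the floor its log2 ratio was 3.00, and the lower end of its 95% counting interval was 2.65. It shares 412 exon bases with the antisense *Hopxos*, and without strand the reads of the pair cannot be told apart. Its SVZ reads split into 35 and 21 by strand, 62.5% on the first [48.5 to 75.1], an interval that includes an even split. Other genes known for the outer radial glia of primates were read beside *Hopx*. Of 13 such genes 10 entered, 9 were higher in the SVZ, 6 of them at least 4-fold, and the median log2 ratio was 2.47. Over all genes the share at least 4-fold higher in the SVZ was 6.75% at 10 CPM and 11.8% with no minimum. It was not computed at the 1 CPM used for this list. The matrix protein *Tnc* (7.45) and the acyl-CoA synthetase *Acsbg1* (5.81) were highest, and *Moxd1* had 122 reads in the SVZ and 0 in the cortex. The signal transducer *Stat3* was at 0.51 [0.31 to 0.72]. *Il6st* (0.00) was near equal, and its direction changed under the 4 other scalings. *Hs6st1*, a heparan sulphate sulphotransferase, was at -1.53. *Fam107a* (11 SVZ reads, 0 in the cortex), *Pdgfd* (0 and 8) and *Lrrc17* (0 and 0) lay under the minimum.

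**Figure D2:**
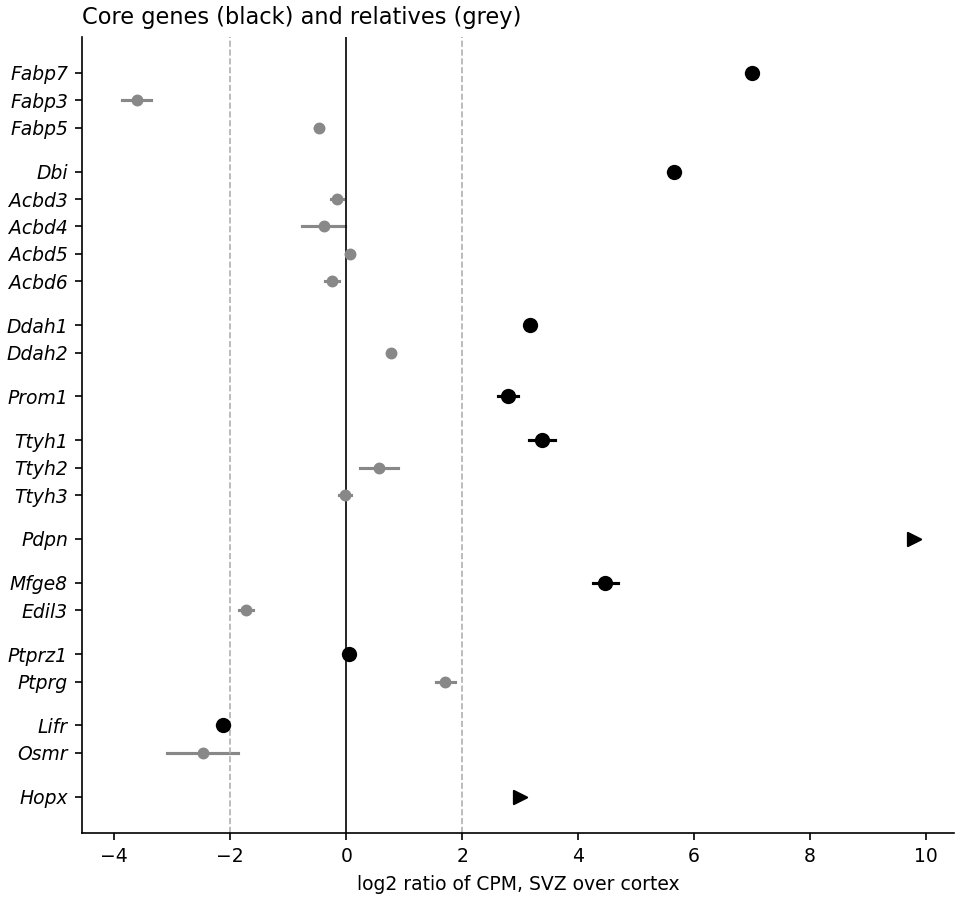
Log2 ratio (SVZ over cortex, CPM) of the core genes in black, each above its relatives in grey where these averaged 1 CPM or more. Lines are exact 95% counting intervals, triangles are lower bounds for genes with 0 cortex reads, and dashed lines mark 4-fold. The 8 core genes higher in the SVZ are drawn from 2.79 (*Prom1*) to the bound of 9.80 (*Pdpn*), with *Ptprz1* at 0.05, *Lifr* at -2.12 and no relative past 4-fold on the SVZ side.

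*Ptprz1* (ENSMUSG00000068748.7, chr6:22875502-23052916, plus strand) encodes a receptor tyrosine phosphatase whose outer part carries chondroitin sulphate, known in radial glia and in oligodendrocyte precursors. It had 20778 reads in the SVZ (404 CPM) and 8605 in the cortex (390.2 CPM). The log2 ratio was 0.05 [0.01 to 0.09], or 1.04-fold, and 52.8% of the 9027 genes had a higher one. Its sign turned under TMM (-0.043), upper-quartile (-0.049) and DESeq2 (-0.043) scaling, so neither area can be named the higher. In the cortex it was the core gene with the most reads, 56.3% of the reads of all 10, against 4.85% in the SVZ. Its ligands and partners split. Of 8 genes, 3 were higher in the SVZ and 5 in the cortex, with a median log2 ratio of -0.91. Over the 9027 genes, 55.2% were higher in the SVZ. The secreted growth factors were *Ptn*, at 787 CPM in the SVZ and 420.2 CPM in the cortex (0.90), and *Mdk*, at 1052 and 51.8 CPM (4.34). The matrix protein *Tnc* was at 301 and 1.72 CPM (7.45). The neuronal surface proteins *Cntn1* (-3.93), *Ncam1* (-2.26) and *Nrcam* (-0.95), the matrix protein *Tnr* (-4.97) and the scaffold *Git1* (-0.87) were higher in the cortex. The related phosphatase *Ptprg* was at 52.5 CPM in the SVZ and 16.1 CPM in the cortex (1.71 [1.54 to 1.87]). Markers of oligodendrocyte precursors summed to 12.1 CPM in the SVZ and 12.0 CPM in the cortex over 5 genes. Of the 3 that entered, 1 was higher in the SVZ and 2 in the cortex, with a median log2 ratio of -0.13, none was at 0, and their part in the level of *Ptprz1* was not tested.

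*Lifr* (ENSMUSG00000054263.12, chr15:7090614-7197489, plus strand) encodes the receptor of leukaemia inhibitory factor, which pairs with gp130 (*Il6st*) to signal through JAK kinases and STAT3 and drives astrocyte formation late in development. It was the core gene with more reads in the shallower library, 1185 in the SVZ (23.0 CPM) and 2205 in the cortex (100.0 CPM). The cortex level was 4.34-fold higher, a log2 ratio of -2.12 [-2.22 to -2.02], and 95.8% of the 9027 genes had a higher ratio. This was on the side of the neuronal markers, whose median log2 ratio was -1.09 over 8 genes. The rest of its pathway did not follow it as a whole. Of 10 genes that entered, 5 were higher in each area, with a median log2 ratio of -0.12. The co-receptor *Il6st* was at 6.63 and 6.62 CPM (0.00 [-0.28 to 0.29]) and *Cntfr*, which joins the complex for ciliary neurotrophic factor, at 9.97 and 9.75 CPM (0.03 [-0.20 to 0.27]). Both changed sign under the other scalings, which gave 3 genes higher in the SVZ and 7 in the cortex. *Osmr*, the oncostatin M receptor and the closest relative of *Lifr*, was scarce at 0.642 and 3.54 CPM (-2.46 [-3.10 to -1.86]).

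The ligands of the pathway were scarce. *Lif* and *Clcf1* had no read in either library, and *Cntf* had 20 SVZ reads and 1 cortex read. *Ctf1*, cardiotrophin-1, was at 12.4 CPM in the SVZ and 2.77 CPM in the cortex (2.17 [1.79 to 2.57]), the ligand with the most reads. Downstream, *Jak1* (-0.84), *Tyk2* (-0.53), *Jak2* (-0.24) and the feedback inhibitor *Socs3* (-0.41 [-0.84 to 0.02]) were lower in the SVZ library, the last with an interval that includes equality. *Stat3* (0.51) was higher there. *Gfap*, an astrocyte gene switched on by this pathway, had 105 reads in the SVZ and 0 in the cortex. Its log2 ratio was at least 3.91 at the floor (lower end of the interval 3.58). The ratios of *Lifr* and of this target thus pointed opposite ways. Both genes had reads in the SVZ, where *Lifr* was at 23.0 CPM and *Gfap* at 2.04 CPM.

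**Figure D3:**
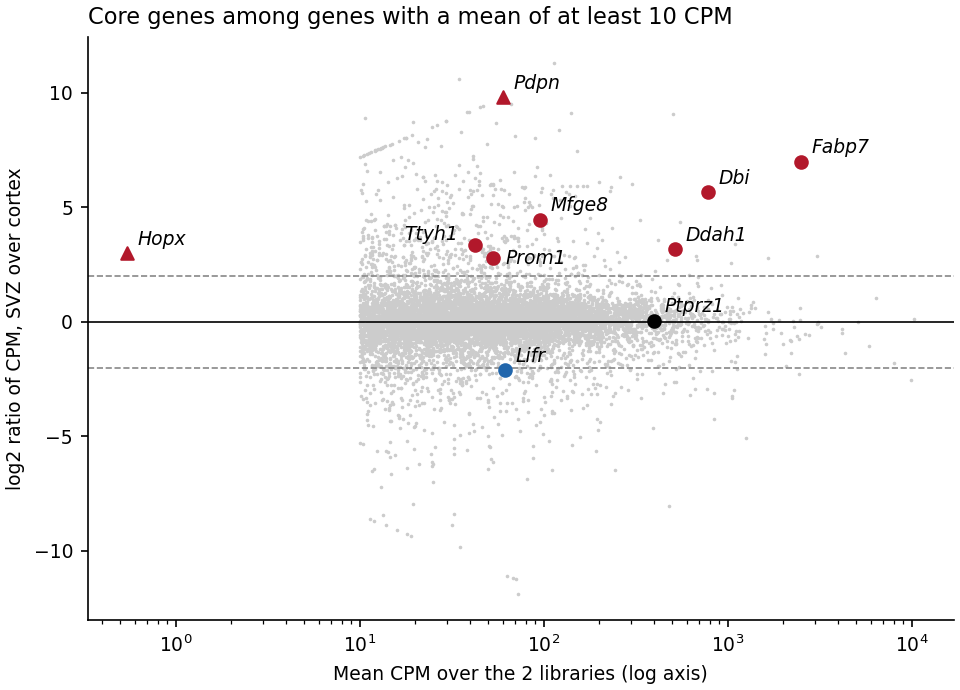
Log2 ratio (SVZ over cortex) against the average CPM of both libraries (log axis). Grey points are the 9027 genes averaging 10 CPM or more, dashed lines mark 4-fold, and the core genes are labelled, with triangles for lower bounds. *Fabp7*, *Dbi* and *Ddah1* lie at the upper right, *Ptprz1* on the line of equality, and *Hopx* at the left under the minimum that the grey points passed.

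To order levels between genes, CPM was divided by the kilobases of exon. On this scale *Fabp7* was the most abundant core gene in the SVZ at 3978 CPM per kb, followed by *Dbi* at 1077 and *Ddah1* at 233. *Pdpn* (66.6), *Mfge8* (38.9), *Ptprz1* (28.4), *Prom1* (13.0), *Ttyh1* (12.2), *Lifr* (2.14) and *Hopx* (0.718) came next, all in CPM per kb. The range was thus wide, and *Prom1* and *Ttyh1* were close neighbours. *Pdpn* and *Mfge8* changed places when the longest coding transcript set the length, a choice added after the data were seen. In the cortex the leading genes were close, with *Fabp7* at 31.2, *Ptprz1* at 27.4, *Ddah1* at 26.1 and *Dbi* at 21.4 CPM per kb. Their order there was not settled, since the longest transcript put *Dbi* first at 53.6 and *Fabp7* at 44.4 CPM per kb, behind *Ptprz1* at 48.4. *Lifr* followed at 9.28 CPM per kb, and *Prom1*, *Mfge8* and *Ttyh1* lay between 1.17 and 1.88. By kilobases of exon, *Fabp7* stood 140 times above *Ptprz1* in the SVZ and 1.14 times in the cortex. By the longest transcript, *Fabp7* was at 5651 and *Ptprz1* at 50.1 CPM per kb in the SVZ, and *Fabp7* was the lower in the cortex.

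Together the 10 genes took 0.834% of gene-assigned reads in the SVZ (0.831 to 0.836) and 0.0693% in the cortex (0.0682 to 0.0704), a 12.0-fold difference. Much of that was *Fabp7*, which supplied 59.7% of the core-gene reads in the SVZ and 5.64% in the cortex. The difference was 5.15-fold without *Fabp7* and 2.94-fold without *Fabp7* and *Dbi*. In the cortex *Ptprz1* (56.3%), *Ddah1* (15.0%) and *Lifr* (14.4%) made up most of the core-gene reads. The makeup of the sum therefore differed between the areas as well as its size.

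**Figure D4:**
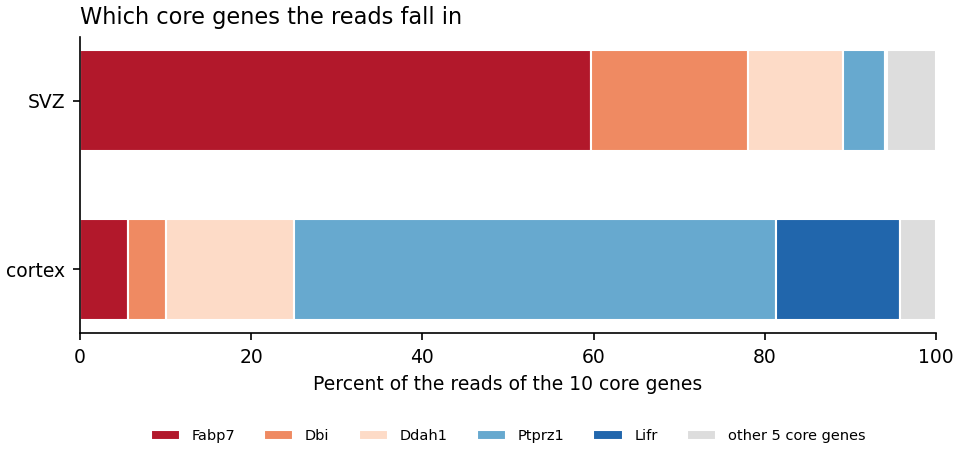
Share of the summed reads of the 10 core genes taken by each gene, in percent, in the SVZ and the cortex library. *Fabp7* fills 59.7% in the SVZ and *Ptprz1* 56.3% in the cortex.

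The genes whose pair of levels lay nearest to that of *Fabp7*, by distance of log2 CPM over the 2 libraries, were *Dbi* (1.74), *Mdk* (2.28) and *Qk* (2.64). *Dbi* is itself a core gene, *Mdk* encodes the growth factor midkine, at 1052 and 51.8 CPM, and *Qk* encodes an RNA-binding protein of neural progenitors and glia, at 1996 and 191 CPM. These distances use CPM without division by length, and with 2 libraries the likeness describes a level and a ratio only.

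Further radial glia genes, also chosen with earlier results of these data known, were read beside the core genes. All 20 were higher in the SVZ, 19 of them at least 4-fold, beside 55.2% and 6.75% of the 9027 genes. Their median log2 ratio was 4.07, and their levels summed to 4915 CPM in the SVZ and 299 CPM in the cortex. The lowest was *Fgfbp3* (1.23). The orphan nuclear receptor *Nr2e1* stood at 9.52 [8.16 to 11.40]. *Veph1*, at 0 in the cortex, stood at 9.15 at the floor (lower end of the interval 8.85), so that the top of the list was not settled. Between them lay the glutamate transporter *Slc1a3* at 4.43, *Sox2* at 3.74 and the Notch target *Hes5* at 6.04. *Ptprz1* and *Lifr* lay below the lowest of the 20. *Mfge8*, *Dbi*, *Fabp7* and *Pdpn* lay above their median.

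Markers of other cell types moved with the core genes between the libraries. All 7 genes of intermediate progenitors were higher in the SVZ (median 4.55, 1068 against 52.9 CPM in sum), with *Neurog1* at 0 in the cortex, as were all 8 genes of cycling cells (median 6.06, 2039 against 31.1 CPM). Of 6 astrocyte genes 5 entered and were higher in the SVZ (145 against 15.1 CPM), with a median of 3.91 that is the bound of *Gfap* and was 2.24 with a pseudocount of 1 CPM, and with *Aqp4*, *Gfap* and *Aldh1l1* at 0 in the cortex. The 5 microglial genes were higher in the SVZ too (median 3.23, or 1.98 with the pseudocount, 35.6 against 4.81 CPM). Choroid plexus and ependymal genes summed to 247 CPM in the SVZ and 1.09 CPM in the cortex. Nearly all of that was *Ttr*, with 12363 and 16 reads, while the ependymal regulator *Foxj1* had 13 and 4 reads and *Folr1*, *Clic6*, *Otx2* and *Kcne2* were at 0 in the cortex and *Kl* in both. Of these 8 genes 2 entered, *Ttr* (8.37) and *Folr1* (4.33 at the floor, lower end of the interval 4.02). The part of these cells in the SVZ levels of the core genes was not tested.

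The neuronal genes summed to 3950 CPM in the SVZ and 10662 CPM in the cortex. Endothelial genes were split (3 of 6 higher in the SVZ, median -0.09, 68.3 against 58.4 CPM), and all 3 pericyte genes were slightly higher in the SVZ (median 0.61, 84.8 against 56.1 CPM). Of 6 meningeal genes 4 entered, 1 higher in the SVZ and 3 in the cortex (median -1.30, 4.59 against 9.39 CPM). Of the 6 erythroid genes, *Alas2* alone entered (0.98), and *Hba-a1*, *Hba-a2*, *Hbb-bs* and *Hbb-bt* were at 0 in both libraries, where reads shared by near-identical copies are not counted. The part of neuronal and meningeal RNA in the cortex level of *Lifr* was not tested.

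**Figure D5:**
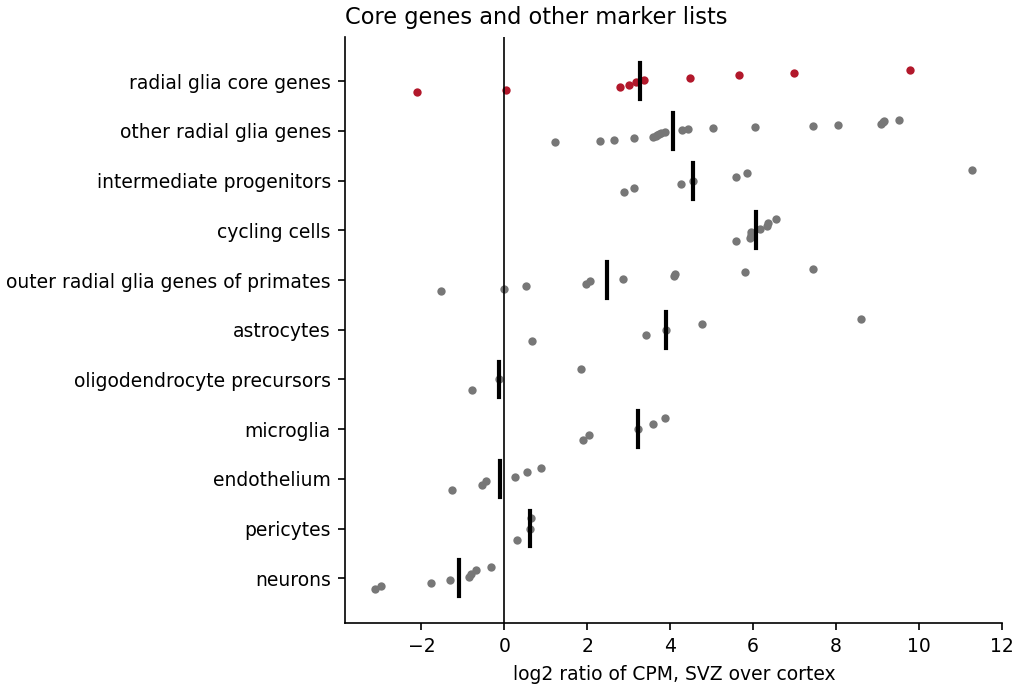
Log2 ratio (SVZ over cortex, CPM) of the 10 core genes in red and of the genes of other marker lists in grey, 1 point per gene averaging 1 CPM or more (*Hopx* is shown although it lies under this), with bounds drawn at their value and the median of each list as a bar. The 20 further radial glia genes are drawn between 1.23 and 9.52 and the 8 neuronal genes between -3.11 and -0.32. The core genes span from -2.12 to the bound of 9.80.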

How the data were processed

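The SVZ and the cortex were each measured by 1 LCM RNA-seq library. Per the study's methods, cDNA was made with a low-input kit, the authors trimmed adapters with cutadapt 4.1, and read 1 was mapped to mm10 with STAR 2.7.9a. The deposited counts are raw read numbers for each gene, given both without strand and for each strand apart. Reads that map to several places or overlap more than 1 gene are left out by STAR, which undercounts genes with close copies. A deposited table of the authors' CPM and fold changes was not used.

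Here the unstranded counts were divided by gene-assigned reads, the 4 summary lines of STAR left out, which were 59.0% of all reads in the SVZ and 59.1% in the cortex. One read was worth 0.0194 CPM in the SVZ and 0.0453 CPM in the cortex. A count of 0 was set at 3 reads. Genes at least 4-fold apart were counted at a mean of at least 10 CPM, context lists at 1 CPM. No share over all genes was taken at 1 CPM, so the counts of the context lists have no background at their own minimum. The members and lists were chosen with earlier results of these data known. Of the *Lifr* pathway list, 2 genes are not reported here and were left out of its counts. All 10 members were named, and of the lists any partner or paralogue and, for cell types, the extremes with up to 5 further genes. Other scalings were edgeR 4.0.16 (TMM, upper quartile), DESeq2 1.42.0 size factors and totals without the 10 most counted genes of each library. Further settings were the sum of the stranded columns, the SVZ counts thinned at random to the cortex total, and a pseudocount of 1 CPM. Positions, exon lengths and overlaps came from GENCODE M21 on GRCm38, with lengths for 96.5% of the 9027 genes. The study took its mm10 reference from Illumina iGenomes, so these gene models can differ from those used for counting. Python 3.11.15 and scipy 1.17.1 were used, and the procedures were tested on simulated data of independent reads. Those data held no copied molecules and no spread between libraries, so neither was covered by the test.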

Additional observations from a re-analysis of the deposited data

How the results depend on the processing

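No paired analysis was possible because only 1 library was made per area, and none could be left out in turn. Of 70 values of single core genes under other settings, 61 stayed within their 95% counting interval (for *Pdpn* and *Hopx*, above its lower ends of 9.50 and 2.65), 6 moved outside and 3 changed direction, all of *Ptprz1*, at -0.043 (TMM), -0.049 (upper quartile) and -0.043 (DESeq2). Only *Fabp7*, *Dbi*, *Ddah1* and *Ptprz1* averaged 100 CPM or more. Their median was 4.41, and the first 3 were past 4-fold on the SVZ side. Of all 10 core genes, 8 were past 4-fold on that side and 5 past 10-fold. The count past 4-fold was 7 with a pseudocount of 1 CPM, which put *Hopx* at 1.06 and *Pdpn* at 6.93, just below *Fabp7* at 6.96. Of 130 medians of other lists under other settings, 13 moved, among them the astrocyte (2.24) and microglial (1.98) medians with that pseudocount and the median around *Ddah1* under TMM, upper-quartile and DESeq2 scaling (0.061, 0.055 and 0.061). Over all genes the SVZ count of 609 became 1868 with no minimum, 1300 at 1 CPM, 87 at 100 CPM, 1341 at 2-fold and 329 at 10-fold. The cortex count of 424 became 1473, 893, 100, 1113 and 158 in the same order. These are counts and not shares, since the number of genes that enter changes with the minimum. With no minimum the SVZ share was 11.8% of 15847 genes. The other scalings lowered every ratio by at most 0.10 on the log2 scale, and *Ddah1* then lay between 3.06 and 3.13. The cause of these changes was not tested. Depth limits *Hopx* most, since its bound rests on 56 reads, and without replicates nothing here measures the spread between embryos or cuts.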
